A study of Mus musculus with 6 samples.

Results

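The Wnt ligands, their Frizzled and Lrp receptors, the secreted antagonists and the first intracellular and nuclear components of the pathway were examined in newborn mouse olfactory epithelium. Members were all genes whose probe sets carry exactly 1 symbol that reads Wnt, Fzd, Sfrp or Dkk followed by a digit, or that is Lrp5, Lrp6, Wif1, Axin1, Axin2, Lef1, Tcf7, Tcf7l1 or Tcf7l2. They numbered 46 of 18193 genes: 19 ligands, 12 receptors, 9 secreted antagonists, 5 intracellular and nuclear components, and Fzd10os, a transcript opposite to Fzd10 that the symbol brings in and that is no receptor. Tcf7 is not analysed here. Of the 46, 29 were bright enough to test and 17 were dim. Membership was set by gene symbol and not by a measured difference, but earlier results of these data were known when it was chosen.

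RNA from the olfactory epithelium of 6 pups aged 1 day was measured on 1 array per pup. The wild-type group (n = 3) and the mutant group (n = 3) shared a mixed background of C57Black6/J and 129SvJ. The labels call the second group only mutant, and the series title names targets of the zinc finger factor KLF7 as the question; the allele, zygosity and sex are not given in the sources used here. RNA was amplified with the Ovation kit into biotin-labelled cDNA. A level is a bulk value over the dissected tissue, in which fewer cells of a type and less RNA per cell cannot be told apart.

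Wnt proteins are lipid-modified signals that act over short distances. They bind Frizzled receptors together with the co-receptors Lrp5 and Lrp6, which stops Axin-containing complexes from destroying beta-catenin and lets it act with Lef/Tcf factors on target genes; other Wnts act through Frizzled, Ror2 or Ryk without beta-catenin. Sfrp proteins and Wif1 bind the ligands, and Dkk1 blocks Lrp5 and Lrp6. In the olfactory epithelium this pathway is known for its role in basal stem and progenitor cells and the supply of new neurons.

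All levels are log2 intensities after quantile normalization, with a floor of 3.65 below which values were not distinguished. Brightness depends on the probe set as well as the transcript, so levels are compared between arrays for 1 gene and not between genes. Array medians of the deposited intensities ran from 38.21 to 61.59. All 4 Klf7 probe sets were lower on every mutant than on every wild-type array, with mean differences of -2.15 to -3.06 (mutant minus wild type, log2). Markers of mature olfactory neurons were present (10 of 12 found, 0 at the floor on all arrays). Their summed intensity was 6850 to 8792 in wild type and 4774 to 5102 in mutant, and 8 of the 10 had a lower mutant mean. Their median level overlapped between the groups. It was 9.48, 9.28 and 9.11 on wild-type arrays 1, 2 and 3 and 8.49, 9.33 and 8.93 on mutant arrays 1, 2 and 3. Arrays also differed within groups: summed markers of squamous epithelium ran from 559.4 to 6805 in wild type and from 363.4 to 2959 in mutant, and those of cartilage and bone from 1403 to 8545 and from 2685 to 5324, both highest on wild-type array 2. The part of these differences in the results below was not tested. A value given without an array leaves out all that is particular to that array, so it does not single out tissue content.

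The comparison of mutant with wild type belongs to the search for KLF7 targets that the series title names. No tested Wnt ligand, receptor, antagonist or nuclear component passed the test for a difference between the groups. Limma called 0 of the 29 tested members at an adjusted p under 0.05, and each had an adjusted p of 1; it called 0 of 12703 genes tested, or 0%. At an unadjusted p under 0.05 stood 0 members, where 0.598% of all genes did (76 genes, 0.441% lower and 0.157% higher in the mutant; 157 with the replicate number as a block, again with 0 members). The groups overlapped for all 29 members, where they were apart for 2.86% of all genes (1.95% lower, 0.905% higher). Of the 29, 14 had a lower and 15 a higher mutant mean, a median difference of 0.001 (mutant minus wild type, log2), beside 52.6% lower and a median of -0.02 over all genes tested. The middle size of the difference, regardless of sign, was 0.23 for the members and 0.20 for all genes. In every one of the 29 the range among the wild-type arrays alone was larger than the difference between the groups, which held for 94.1% of all genes.

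**Figure D1:**
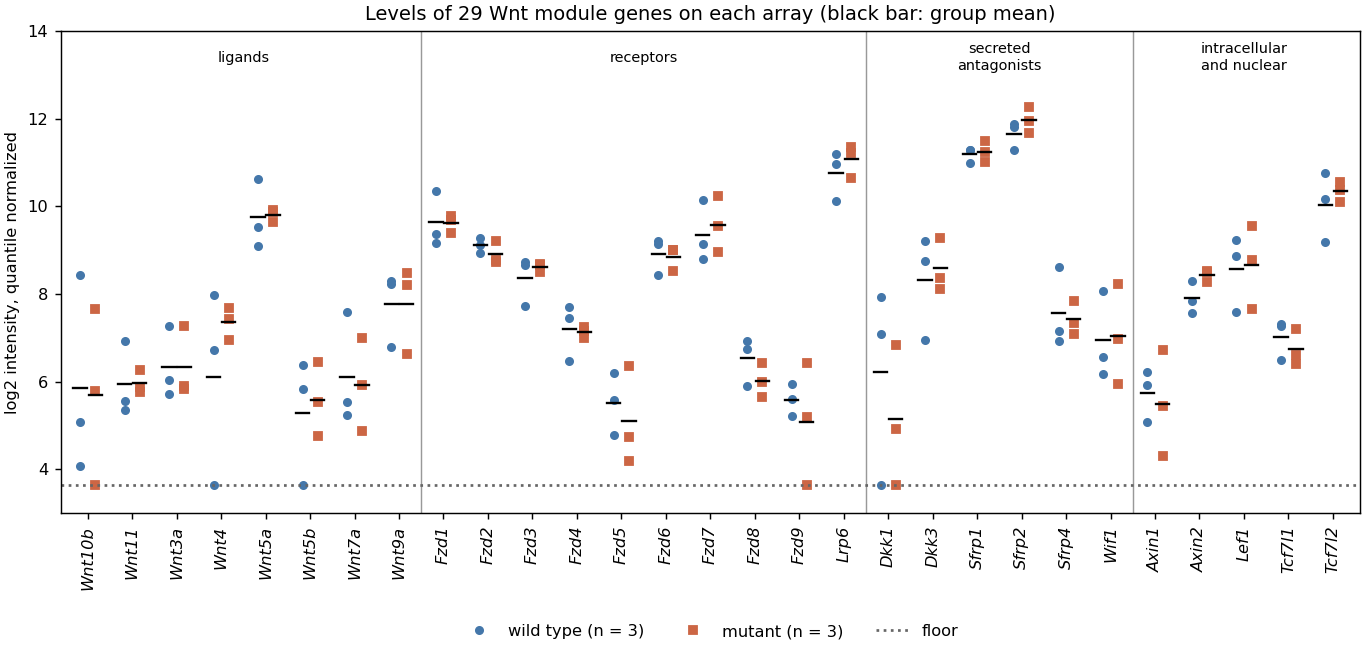
Log2 intensity of the 29 tested genes on each array, by role, with wild-type arrays as circles, mutant arrays as squares and black bars for group means (n = 3 each). The groups overlap for every gene, and Wnt4, Wnt5b, Wnt10b, Dkk1 and Fzd9 each reach the floor of 3.65 on at least 1 array.

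How large a change these arrays could have missed differed from gene to gene. The 95% interval of the difference, from limma, lay within a 2-fold change either way for 7 of the 29 members, or 24.1%, beside 30.2% of all genes tested. These were the ligand Wnt5a (-0.75 to 0.87), the receptors Fzd1 (-0.78 to 0.74), Fzd2 (-0.90 to 0.49), Fzd6 (-0.85 to 0.70) and Lrp6 (-0.34 to 0.98), and the antagonists Sfrp1 (-0.38 to 0.49) and Sfrp2 (-0.16 to 0.78). For the other 22 a change of 2-fold in at least one direction was within the interval. The intervals were widest for Wnt10b (-2.87 to 2.55) and Dkk1 (-3.64 to 1.48). They come from the fit without the replicate number, so variation shared by arrays of the same number counts in them. For Wnt9a such pairs differed by 0.18, -0.03 and -0.15, while its interval ran from -1.33 to 1.34. Klf7, which differed by -2.15 on the probe set used, was not called either.

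**Figure D2:**
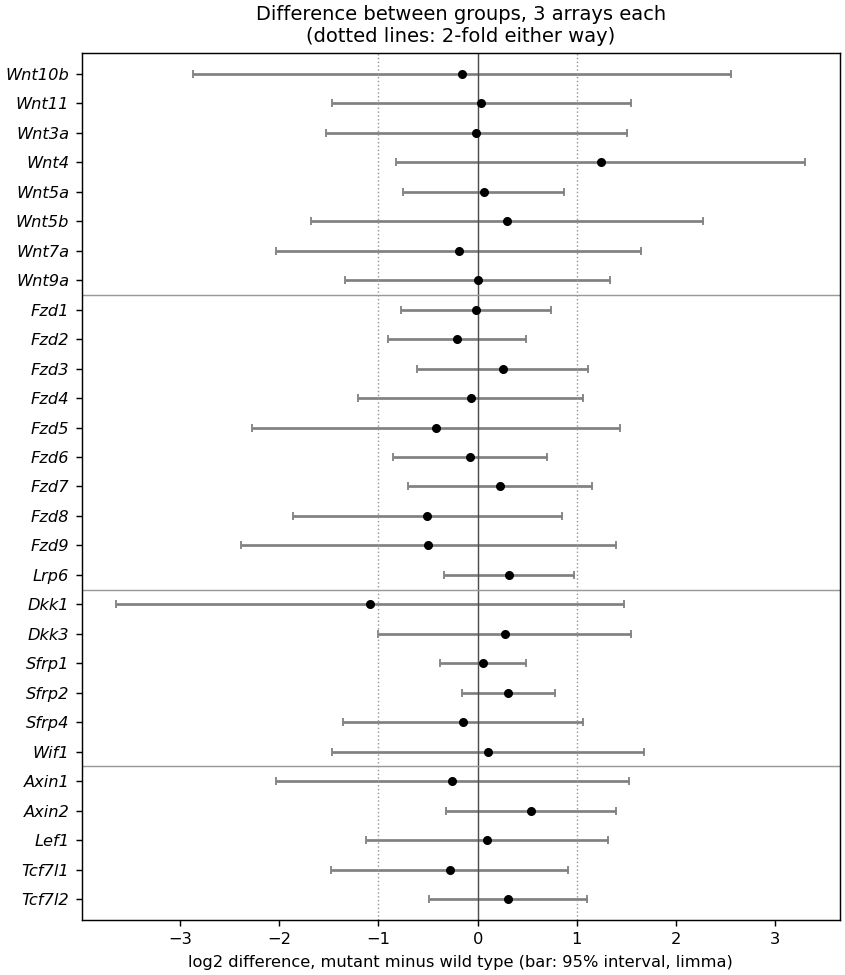
Log2 difference, mutant minus wild type, of the 29 tested genes with its 95% interval from limma (n = 3 arrays in each group), in the order of roles. Every interval spans 0, and 7 of them lie between the dotted lines at a 2-fold change either way.

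Among the ligands 8 of 19 were tested, 3 with a lower and 5 with a higher mutant mean and a median difference of 0.02. Wnt5a, which mostly signals without beta-catenin and shapes growing tissue, was at 9.11, 9.54 and 10.62 on wild-type arrays 1, 2 and 3 and 9.65, 9.86 and 9.93 on mutant arrays 1, 2 and 3. Wild-type array 3 was the highest and wild-type array 1 the lowest, and all mutant arrays lay between them. Values below are given in the order of the array numbers. The difference was 0.06 (SE 0.37; limma, adjusted p = 1; exact two-sided permutation p = 0.9). One of its 3 other probe sets did not overlap between the groups: it was at 9.60, 9.66 and 9.69 on the wild-type arrays and 9.79, 10.14 and 9.72 on the mutant arrays, higher by 0.23 (limma over single probe sets, adjusted p = 1), where 2.65% of 20967 probe sets did not overlap and 0.935% were higher without overlap.

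Wnt4, a ligand of epithelia and of kidney and gonad development, had the largest difference of the module. Its level was 6.71, 7.97 and 3.65 on the wild-type arrays and 7.68, 6.95 and 7.44 on the mutant arrays. Wild-type array 3 lay at the floor, while the other 5 arrays lay between 6.71 and 7.97 and overlapped. The difference of 1.24 (SE 0.94; 2.36-fold, understated for the array at the floor) did not pass (limma, adjusted p = 1; exact two-sided permutation p = 0.6). Without wild-type array 3 it was 0.01, and without wild-type array 2 it was 2.17 (limma, adjusted p = 0.999). A second probe set of Wnt4 was at 5.98, 6.35 and 7.48 on the wild-type arrays and 6.31, 5.46 and 7.70 on the mutant arrays and differed by -0.12.

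Wnt5b, the close relative of Wnt5a, was at 5.83, 6.38 and 3.65 on the wild-type arrays and 6.44, 4.77 and 5.54 on the mutant arrays. On this probe set it too lay at the floor on wild-type array 3, and it differed by 0.30 (SE 0.90) between groups that overlapped. A second Wnt5b probe set above the dim level differed by -0.08 and was not at the floor there. It was at 4.86, 4.96 and 5.90 on the wild-type arrays and 5.97, 3.95 and 5.56 on the mutant arrays. Wnt9a, a ligand of joints and skeleton, was at 8.29, 8.23 and 6.79 on the wild-type arrays and 8.47, 8.20 and 6.64 on the mutant arrays. Both arrays numbered 3 were low and the other 4 lay close together. The difference was 0.00096 (SE 0.61). Wnt7a, known from limb and nervous system patterning, was at 5.53, 5.23 and 7.59 on the wild-type arrays and 5.93, 4.86 and 6.99 on the mutant arrays and was highest on both arrays numbered 3. Its difference was -0.19 (SE 0.84). Each of these 3 genes had an adjusted p of 1 by limma.

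Wnt10b, a ligand of bone and mammary gland, had the widest range of any member. It was at 4.08, 5.07 and 8.43 on the wild-type arrays and 3.65, 5.80 and 7.65 on the mutant arrays, a range of 4.78. Arrays numbered 3 were the highest in both groups, and the mean difference of -0.16 (SE 1.23; limma, adjusted p = 1) was small beside it. Wnt3a, a ligand of the beta-catenin branch, and Wnt11, of the other branches, were also highest on both arrays numbered 3, at 7.27 and 7.28 for Wnt3a and at 6.92 and 6.26 for Wnt11, with the other 4 arrays at 5.72 to 6.05 and at 5.34 to 5.88. The remaining 11 ligands were dim: Wnt1, Wnt2, Wnt2b, Wnt3, Wnt6, Wnt7b, Wnt8a, Wnt8b, Wnt9b, Wnt10a and Wnt16. All 11 lay at the floor on at least 1 array, and Wnt8a on 5. Wnt10a, at a mean of 5.15, fell just below the limit of 5.19, and Fzd5, at 5.31, was the dimmest member above it.

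Receptors were the role with the narrowest spread, with 10 of 12 tested. Their median range over the 6 arrays was 1.23, beside 2.28 for ligands and 1.41 for all genes tested. Their probe sets also read brighter, at a median level of 8.69, beside 6.18 for ligands and 7.81 for all genes, over tested genes only. Brightness depends on the probe set, so this does not rank the roles by expression. The ligands Wnt4, Wnt5b and Wnt10b reached the floor. The part of brightness in the spread was not tested. Of the 10 receptors, 7 had a lower and 3 a higher mutant mean. Lrp6, the co-receptor that passes the signal to Axin, was at 11.21, 10.96 and 10.13 on the wild-type arrays and 11.22, 11.36 and 10.66 on the mutant arrays. Wild-type array 3 was lowest and mutant array 2 highest, and the groups overlapped. The difference was 0.32 (SE 0.30; limma, adjusted p = 1; exact two-sided permutation p = 0.5), positive for all 3 pairs of arrays with the same number (0.02, 0.40 and 0.53), and -5e-04 without wild-type array 3.

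Fzd8, a Frizzled receptor, was the only tested member that was lower in the mutant for each of the 3 pairs, with differences of -0.51, -0.75 and -0.26, where 9.46% of all genes were. Its levels were 6.93, 6.75 and 5.91 on the wild-type arrays and 6.43, 5.998 and 5.65 on the mutant arrays. Mutant arrays lay at the lower end, but mutant arrays 1 and 2 exceeded wild-type array 3. The difference was -0.51 (SE 0.62; limma, adjusted p = 1; exact two-sided permutation p = 0.3), and -0.30 on log2(value + 16). A second Fzd8 probe set was at 7.41, 7.53 and 4.07 on the wild-type arrays and 6.43, 7.002 and 4.83 on the mutant arrays; it was higher in the mutant in the third pair and differed by -0.25. On the probe set used, Fzd2 was the steadiest receptor, with a range of 0.55 and a difference of -0.21 (SE 0.32). It was at 9.12, 9.28 and 8.95 on the wild-type arrays and 9.21, 8.79 and 8.73 on the mutant arrays. The other Fzd2 probe sets were dim and differed by -0.88 and 0.37. With the mean of its probe sets Fzd2 was lower in the mutant without overlap, where 2.92% of 11618 genes did not overlap. Fzd1, a close relative of Fzd2, was at 9.18, 9.37 and 10.36 on the wild-type arrays and 9.38, 9.77 and 9.70 on the mutant arrays, with wild-type array 3 above all others and a difference of -0.02 (SE 0.34). Both had an adjusted p of 1 by limma.

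Fzd3, which guides axons together with planar polarity proteins, ran from 7.72 to 8.72 over the 6 arrays, with wild-type array 2 alone below 8.50. Fzd4, the receptor of norrin, and Fzd6, a planar polarity receptor, were likewise lowest on wild-type array 2, at 6.48 and 8.43, and ran up to 7.70 and 9.20. Fzd7, of the same subgroup as Fzd1 and Fzd2, ran from 8.79 to 10.23 and was highest on wild-type array 1 and mutant array 2, and Fzd5 and Fzd9 ran from 4.19 to 6.37 and from the floor to 6.43. Fzd10 and Lrp5 were dim, each at the floor on 3 arrays, as was Fzd10os, at the floor on 1.

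Secreted antagonists were tested for 6 of 9 members, 2 with a lower and 4 with a higher mutant mean. Sfrp2, which binds Wnts outside the cell, had the smallest unadjusted p of the module (0.177 by limma). It was at 11.87, 11.82 and 11.28 on the wild-type arrays and 11.94, 12.28 and 11.68 on the mutant arrays. Mutant array 2 was highest and wild-type array 3 lowest, and mutant array 3 lay below wild-type arrays 1 and 2. The means were 11.66 ± 0.33 over the wild-type pups and 11.97 ± 0.30 over the mutant pups (mean ± SD, 3 arrays in each group), a difference of 0.31 (SE 0.21; 1.24-fold; limma, adjusted p = 1; exact two-sided permutation p = 0.4), positive for all 3 pairs. Without wild-type array 3 it was 0.12.

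Sfrp1, its close relative, was among the steadiest members, at 11.29, 11.30 and 11.002 on the wild-type arrays and 11.49, 11.03 and 11.24 on the mutant arrays. The range was 0.49 and the difference 0.06 (SE 0.20; limma, adjusted p = 1; exact two-sided permutation p = 0.9). A further 4 probe sets of Sfrp1 were above the dim level, with differences of -0.08, 0.39, 0.40 and 0.40. One of these was higher on every mutant than on every wild-type array, at 9.51, 9.40 and 9.63 on the wild-type arrays and 9.90, 10.12 and 9.71 on the mutant arrays (limma over single probe sets, adjusted p = 1). Of all 20967 probe sets fitted singly, 2.65% did not overlap and 0.935% were higher without overlap. The probe sets of Sfrp1 thus give differences from -0.08 to 0.40.

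Dkk1, the inhibitor of Lrp5 and Lrp6, had the largest negative difference. It was at 7.08, 7.93 and 3.65 on the wild-type arrays and 6.84, 3.65 and 4.92 on the mutant arrays. Wild-type array 3 and mutant array 2 were at the floor, and the groups overlapped across most of the range. The difference was -1.08 (SE 1.16; limma, adjusted p = 1; exact two-sided permutation p = 0.6). It was -2.37 without wild-type array 3 (limma, adjusted p = 1) and -0.23 without wild-type array 2. A second Dkk1 probe set was dim, differed by 0.01 and was highest on wild-type array 3. It was at 3.97, 3.65 and 6.44 on the wild-type arrays and 4.32, 4.02 and 5.75 on the mutant arrays. Dkk3, a divergent member of the same family, was at 8.76, 9.22 and 6.95 on the wild-type arrays and 9.28, 8.11 and 8.36 on the mutant arrays and was lowest on wild-type array 3. It differed by 0.27 (SE 0.58; limma, adjusted p = 1), and by -0.40 without that array.

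Wif1, which binds Wnts in cartilage and other tissues, was at 6.18, 8.08 and 6.57 on the wild-type arrays and 8.23, 5.94 and 6.97 on the mutant arrays. Wild-type array 2 and mutant array 1 stood above the rest, so the spread lay within both groups. Sfrp4, a further Wnt-binding Sfrp, ran from 6.92 to 8.62, highest on both arrays numbered 3. Dkk2, Dkk4 and Sfrp5 were dim. Dkk2, named after its values were seen, was the only one of all 46 members whose groups did not overlap, or 2.17%, beside 2.95% of all 18193 genes (1.87% lower, 1.08% higher). It was at 5.20, 4.82 and 4.98 on the wild-type arrays and 4.73, 4.30 and 3.65 on the mutant arrays. It was not tested because of its low signal, mutant array 3 lay at the floor, and its exact two-sided permutation p was 0.1, the smallest that 3 arrays against 3 can give; with no dim filter limma gave 0 of the 46 members an unadjusted p under 0.05.

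Intracellular and nuclear components were all tested, 2 with a lower and 3 with a higher mutant mean. Axin2, a scaffold of the beta-catenin destruction complex and itself a widely used readout of the pathway, was at 8.30, 7.84 and 7.56 on the wild-type arrays and 8.54, 8.28 and 8.50 on the mutant arrays. Mutant arrays were at the upper end, but wild-type array 1 lay just above mutant array 2. The means were 7.90 ± 0.37 over the wild-type pups and 8.44 ± 0.14 over the mutant pups (mean ± SD, 3 arrays in each group), a difference of 0.54 (SE 0.39; 1.45-fold; limma, adjusted p = 1; exact two-sided permutation p = 0.2). Arrays with the same number differed by 0.24, 0.44 and 0.93; 3 of the 29 members were higher in all 3 pairs, Axin2, Lrp6 and Sfrp2, or 10.3%, beside 6.31% of all genes. Its second probe set was dim, at the floor on 5 arrays and at 4.67 on mutant array 2. With the mean of both, Axin2 did not overlap between the groups, through that 1 value, where 2.92% of 11618 genes did not overlap; the difference was 0.44 (limma, adjusted p = 1).

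Tcf7l2, a Tcf factor, was at 10.16, 9.20 and 10.76 on the wild-type arrays and 10.56, 10.37 and 10.10 on the mutant arrays. Wild-type array 2 was low and wild-type array 3 high, with all mutant arrays between. The difference was 0.31 (SE 0.36; limma, adjusted p = 1), and -0.11 without wild-type array 2. Its 2 other probe sets above the dim level differed by -0.54 and 0.28, and the mean of its probe sets by 0.0378. Tcf7l1, which mainly represses targets, was at 6.49, 7.32 and 7.26 on the wild-type arrays and 7.21, 6.60 and 6.40 on the mutant arrays and differed by -0.28 (SE 0.54). Lef1, a nuclear partner of beta-catenin, was at 9.24, 7.59 and 8.86 on the wild-type arrays and 8.78, 9.55 and 7.66 on the mutant arrays. It was low on wild-type array 2 and mutant array 3 and high on mutant array 2, with a difference of 0.10 (SE 0.55); both had an adjusted p of 1 by limma. Axin1, the other Axin scaffold of that complex, ran from 4.30 on mutant array 3 to 6.72 on mutant array 1.

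The upstream regions of 4 members, chosen after their values were seen, are shown because they belong to the genes with the largest difference in each direction (Wnt4, Dkk1), the smallest p (Sfrp2) and the pathway readout Axin2. Each run is the 250 bases before the gene's start, from the RefSeq promoter table of build GRCm38.p6, on the gene's strand, 5′ to 3′. Capitals mark the letters CACCC, of the kind that KLF factors bind, and the letters CTTTGAA or else the letters CTTTGAT, of the kind that Lef/Tcf factors bind. Both strands were searched, so CACCC on the other strand reads GGGTG, and in these windows no match overlaps another. The windows are chr4:137277385-137277634 (+ strand), chr19:30549497-30549746 (- strand), chr3:83766071-83766320 (+ strand) and chr11:108920099-108920348 (+ strand).
Wnt4: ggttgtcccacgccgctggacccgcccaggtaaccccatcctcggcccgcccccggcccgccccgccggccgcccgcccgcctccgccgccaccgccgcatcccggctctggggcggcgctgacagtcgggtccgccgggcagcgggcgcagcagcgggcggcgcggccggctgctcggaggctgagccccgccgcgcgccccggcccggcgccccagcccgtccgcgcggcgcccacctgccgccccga
Dkk1: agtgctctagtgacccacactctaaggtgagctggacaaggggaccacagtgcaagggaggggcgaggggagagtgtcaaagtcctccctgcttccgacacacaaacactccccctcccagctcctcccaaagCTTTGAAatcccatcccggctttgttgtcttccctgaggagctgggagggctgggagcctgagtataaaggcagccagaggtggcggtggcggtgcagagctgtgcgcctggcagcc
Sfrp2: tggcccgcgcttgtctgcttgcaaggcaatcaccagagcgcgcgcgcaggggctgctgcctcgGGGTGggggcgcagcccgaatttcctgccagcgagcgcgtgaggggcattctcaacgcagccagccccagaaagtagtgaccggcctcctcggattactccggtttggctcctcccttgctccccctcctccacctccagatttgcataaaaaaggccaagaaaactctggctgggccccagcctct
Axin2: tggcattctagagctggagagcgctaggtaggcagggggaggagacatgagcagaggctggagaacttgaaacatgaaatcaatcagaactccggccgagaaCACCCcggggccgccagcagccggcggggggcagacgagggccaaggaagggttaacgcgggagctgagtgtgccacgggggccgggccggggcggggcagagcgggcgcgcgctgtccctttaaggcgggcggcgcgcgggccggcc

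Sfrp2 and Axin2 each held 1 CACCC match, Dkk1 held 1 CTTTGAA match, and Wnt4 held neither. The table matched 19 of the 29 tested members, with 26 windows. Of these windows 20, or 76.9%, held CACCC on at least 1 strand, beside 52% of all 32851 windows. They belong to 13 of the 19 genes. A gene can have several windows, so shares of windows are not shares of genes. A Lef/Tcf match was held by 3 windows, or 11.5%, beside 7.48%. The 3 lie at Dkk1, Wnt11 and Wnt5b. These matches describe the letters only.

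Variation among arrays of the same group is described by 2 patterns, both chosen after the values were seen. On the first, wild-type array 2 and mutant array 1 were the 2 highest arrays for 7 of the 29 members, or 24.1%, beside 12.5% of all genes tested: Dkk3, Fzd2, Fzd9, Sfrp1, Wif1, Wnt4 and Wnt5b. The same arrays were the 2 highest for 7 of 10 markers of cartilage and bone, 7 of 11 of squamous epithelium and 6 of 8 of horizontal basal cells. In the last list Trp63 was highest on mutant array 2 (11.09) and Krt17 on mutant array 3 (8.78). Summed markers of horizontal basal cells ran from 1841 to 5991 in wild type and from 3395 to 6467 in mutant. In cartilage and bone 0 markers were at the floor on all arrays, and the median marker level was 9.60 on wild-type array 2 and 9.07 on mutant array 1, against 6.002 to 7.05 elsewhere. For Dkk3, Sfrp1, Wnt4 and Wnt5b the other probe sets above the dim level did not have these 2 arrays highest. On the Sfrp1 probe set used, wild-type array 2 was at 11.296 and wild-type array 1 at 11.293. The part of these tissues in the levels of the 7 members was not tested. Without both arrays 0 members passed (limma), 20 of 29 had a lower mutant mean, or 69%, beside 54.9% of all genes, and 7 did not overlap between 2 arrays and 2, or 24.1%, beside 20% of all genes.

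**Figure D3:**
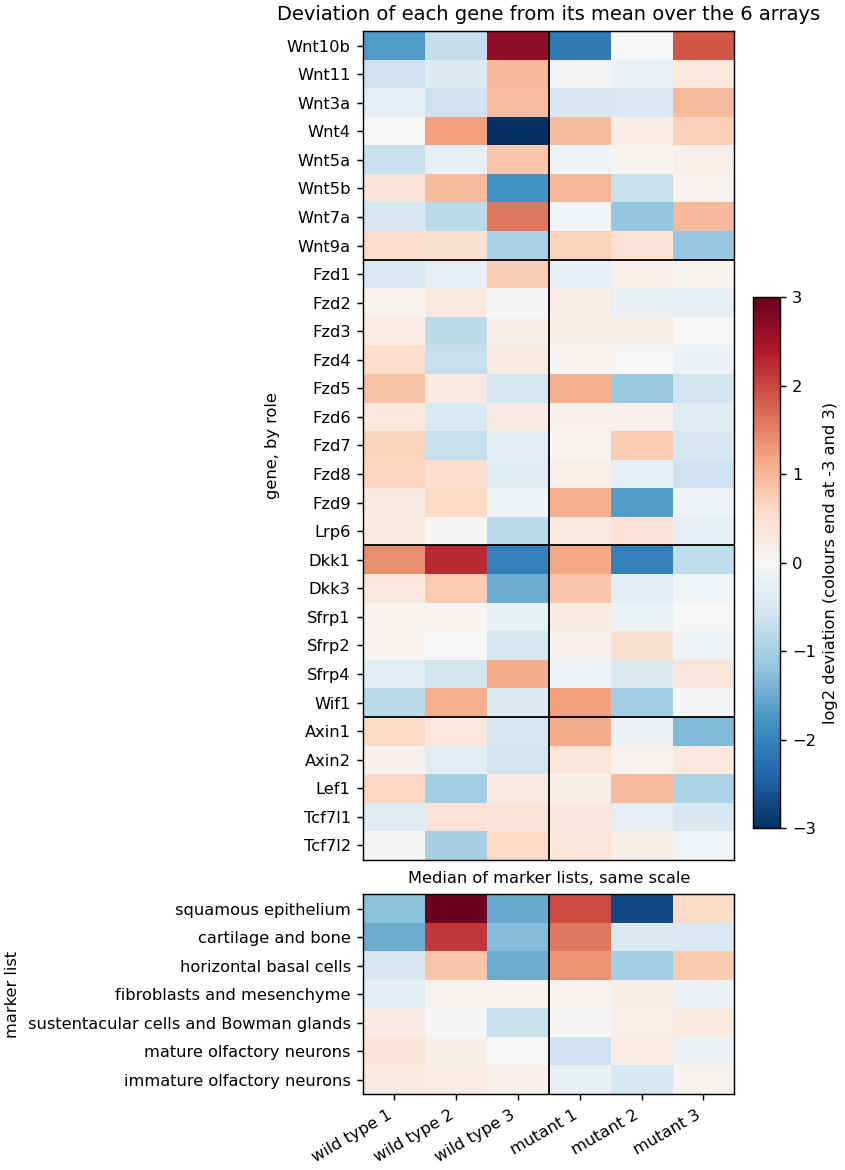
Deviation of each of the 29 tested genes (above, by role) and of the median of 7 marker lists (below) from its mean over the 6 arrays, in log2 units, red above and blue below, with wild-type arrays left of the black line. Wif1 and Dkk3 are red on wild-type array 2 and mutant array 1, as are cartilage and squamous markers, while Wnt10b and Wnt7a are red on both arrays numbered 3.

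On the second pattern, both arrays numbered 3 were the 2 highest for 6 of the 29 members, or 20.7%, beside 18.9% of all genes: Sfrp4, Wnt3a, Wnt5a, Wnt7a, Wnt10b and Wnt11. They were the 2 lowest for 5, or 17.2%, beside 19.1%: Axin1, Fzd8, Lrp6, Sfrp2 and Wnt9a. Both shares are near those of all genes. Among dim members with at least 2 arrays above the floor, 7 of 16, or 43.8%, had both arrays numbered 3 highest, beside 26.1% of 4806 dim genes; these were Wnt2b, Wnt6, Wnt8b, Wnt9b, Wnt10a, Fzd10 and Fzd10os.

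Probe sets of the same gene went opposite ways on the arrays numbered 3. Of 11 members with several probe sets above the dim level, 8 had at least 1 higher and 1 lower on arrays numbered 3 than on the other 4, or 72.7%, beside 55.4% of 5140 such genes. Past a difference of 1 each way stood Wnt4, Wnt9a and Axin1, or 27.3%, beside 5.68%. For Wnt9a, the second probe set was at 4.45, 3.65 and 8.34 on the wild-type arrays and 4.87, 3.65 and 7.38 on the mutant arrays, high on arrays numbered 3, where the first was low. The second Axin1 probe set was at 5.07, 5.54 and 6.49 on the wild-type arrays and 3.83, 6.30 and 6.03 on the mutant arrays, lowest where the first was highest. Between mutant and wild type the probe sets of these 3 genes differed from -0.32 to 1.24, and none passed (limma over single probe sets, adjusted p = 1, against 0% of 20967).

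**Figure D4:**
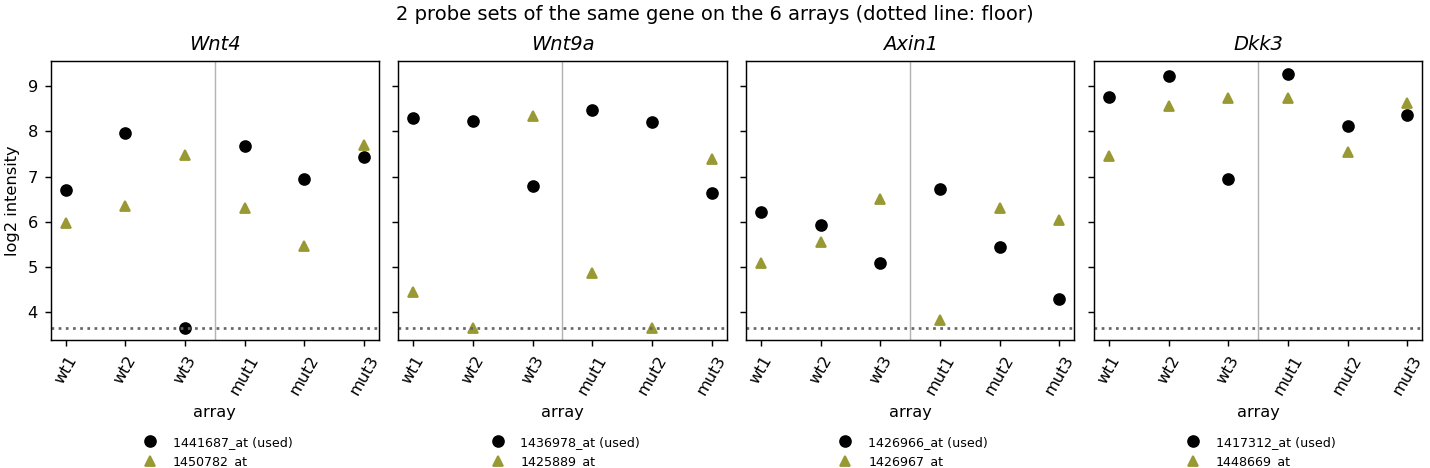
Log2 intensity of 2 probe sets of Wnt4, Wnt9a, Axin1 and Dkk3 on wild-type (wt) and mutant (mut) arrays 1 to 3, with circles for the probe set used and triangles for the other. For all 4 genes the mean of the arrays numbered 3 lies below that of the other arrays for the circles and above it for the triangles.

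The wider pathway, from lists of genes for secretion, co-receptors, the beta-catenin branch, planar polarity and common targets, gave 67 tested genes that are not members, 34 with a lower and 33 with a higher mutant mean and a median difference of -0.0045. By limma 0 of the 67 were called and 0 had an unadjusted p under 0.05, and the groups overlapped for all 67. With array weights, and on leaving out wild-type array 3 or both arrays numbered 3, Gpc6 had an unadjusted p under 0.05 (differences of 0.81, 0.94 and 1.04; limma, adjusted p = 1 for each), beside 1.03%, 1.06% and 0.968% of all genes. In ligand secretion and processing 3 of 6 were lower: the acyltransferase Porcn differed by 0.66 (SE 0.57), the Wnt carrier Wls by 0.19 (SE 0.28), and the glypicans Gpc6 and Gpc3 by 0.47 (SE 0.36) and -0.24 (SE 0.57). Among co-receptors, agonists and further antagonists 9 of 16 were lower. Norrin (Ndp) differed by -0.84 (SE 0.79), the receptor Ryk by 0.36 (SE 0.40), the R-spondin receptor Lgr6 by 0.23 (SE 0.31) and Tnfrsf19, also in the target list, by 0.28 (SE 0.47).

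The beta-catenin branch split evenly, with 15 of 30 lower and a median of 0.02. Csnk1e, a casein kinase of the pathway, had the smallest unadjusted p among these 67 genes and the members (0.129 by limma) and was at 9.82, 9.85 and 10.06 on the wild-type arrays and 9.72, 10.57 and 11.04 on the mutant arrays. Mutant arrays 2 and 3 were above the wild-type arrays and mutant array 1 was below them, and the difference was 0.53 (SE 0.33). It was 0.19 with the mean of probe sets, 0.34 with array weights and 0.90 without mutant array 1 (limma, adjusted p = 1 for each). Gsk3b, the kinase that marks beta-catenin for destruction, differed by 0.28 (SE 0.20), the nuclear cofactor Pygo1 by -0.79 (SE 0.59) and the co-repressor Tle4 by 0.34 (SE 0.27). In the planar polarity branch 4 of 12 were lower. Its core membrane and partner proteins differed as follows, with Vangl1 at -0.72 (SE 0.55), Prickle2 at 0.40 (SE 0.41), Celsr3 at -0.23 (SE 0.32) and the GTPase Rhou at 0.20 (SE 0.28). Of 9 tested genes in the list of common targets, which shares Axin2 and Lef1 with the members, 4 were lower. The other 6 were dim: Ascl2, Lgr5, Myc, Notum, Rnf43 and Sp5. Ascl2, a transcription factor named after its values were seen, was at the floor of 3.65 on all wild-type arrays. It was at 4.25, 5.72 and 5.53 on the mutant arrays, without overlap (exact two-sided permutation p = 0.1). The groups overlapped for the other 5. With no dim filter, 1 of 78 pathway genes that are not members did not overlap, or 1.28%. Over all 18193 genes the share was 2.95%, with 1.08% higher in the mutant. The cell cycle gene Ccnd1 differed by -0.12 (SE 0.24) and the growth factor gene Fgf20 by -0.43 (SE 0.81). For every tested gene named here the adjusted p was 1 by limma.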

How the data were processed

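Per the labels' protocols, RNA was isolated with RNeasy columns and amplified with the Ovation system. The authors deposited linear intensities, 1 for each probe set of each array; probe summary, background correction and scaling are not stated in the labels. Of 45037 probe sets, 34945 carried 1 gene symbol in GEO's platform annotation, 932 several and 9160 none; the last 2 kinds were not used.

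Array quartiles differed by 0.63, 0.69 and 0.54 (log2), so arrays were quantile normalized. Values under the 20th percentile, 12.56 in intensity, were set to it before log2 was taken. For each gene the probe set with the highest mean was kept, and genes below the 40% point of single-gene probe sets, 5.19, were left out as dim. This left 12703 genes, tested with limma 3.58.1 in R 4.3.3 (lmFit, eBayes with an intensity trend, two-sided, Benjamini-Hochberg over all genes, threshold 0.05). The code was tried on simulated data with less noise than these arrays hold. That trial does not measure what change these arrays could detect. Exact permutation tests were run for single genes. The number of arrays limits the precision. Promoter windows are on the gene's strand: near the start TATAAA outnumbered its reverse 349 to 124 and 353 to 118 on the 2 strands.

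Genes named are, in each role, members whose groups do not overlap, the 3 of smallest p and the 2 of highest mean, the 4 widest ranges over all members, and up to 4 per pathway list; others are named to account for each role. Members and lists were chosen with earlier results of these data known. Same-numbered arrays deviated together from their group means (correlation across genes 0.47 for number 1, 0.18 for number 2 and 0.56 for number 3). By that check arrays numbered 1 and those numbered 3 went together. It did not settle number 2, as the correlation of wild-type array 2 with mutant array 1, 0.22, was above that with its own number. Pairs in the results above are therefore pairs by array number only. The labels name the replicates biological. Alternatives changed the normalization, floor, dim filter, probe set choice, variance model, weights, block and arrays used; leaving out wild-type array 2 with mutant array 1, and fitting single probe sets, were added after the data were seen. Arrays were left out after normalization, with the same genes tested.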

Additional observations from a re-analysis of the deposited data

How the results depend on the processing

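Under all 18 alternatives limma called 0 members and 0 genes over all genes tested, and the smallest adjusted p of a named gene was 0.999. With the replicate number as a block, 157 genes had an unadjusted p under 0.05, against 76 without it, 0 members did, and the block changed no call. The 76 became 43 with array medians set equal, 50 with no normalization between arrays, 191 without the dim filter, 131 with array weights, 123 without both arrays numbered 3 and 129 without wild-type array 2 and mutant array 1. Leaving out 1 array gave 71 to 219, reaching 219 when wild-type array 2 was the one and 135 when it was wild-type array 3.

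Members at an unadjusted p under 0.05 by limma numbered 0 to 1 of 29 when 1 array was left out, beside 0.559% to 1.72% of all genes. The member was Wnt4 without wild-type array 2 (beside 1.72%) and Dkk1 without wild-type array 3 (beside 1.06%). With both arrays numbered 3 out it was 2 of 29 (Dkk1, Tcf7l2), beside 0.968%. Members whose groups did not overlap numbered 1 to 5 when 1 array was left out (3.45% to 17.2%, beside 8.23% to 11.5% of all genes), 8 without both arrays numbered 3 (27.6%, beside 20.5%), 7 without wild-type array 2 and mutant array 1 (24.1%, beside 20%), 2 with the mean of probe sets (Axin2, Fzd2; 7.69%, beside 2.92%) and 1 without the dim filter (Dkk2; 2.17%, beside 2.95%). Fewer arrays overlap less often by construction. Members with a lower mutant mean, 14 of 29, became 9 of 29 with no normalization (31%, beside 40.7% of all genes), 9 of 29 with array weights (31%, beside 51.7%) and 6 of 19 with the dim filter at 60% (31.6%, beside 51.9%). Of the pathway genes that are not members, 0 were called in any alternative, and at most 1 had an unadjusted p under 0.05. This was Gpc6 in 3 alternatives, Csnk1e in 2, and Gsk3b and Ascl2 in 1 each. That 1 gene was 1.49% of these genes, or 1.28% without the dim filter, beside 0.677% to 1.06% of all genes.

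Of 639 differences of the 36 named genes under the alternatives, 586 kept their sign and 53 did not. No dim filter, the dim filter at 60%, no intensity trend and the block cannot change a difference. Their 36, 29, 36 and 36 values are among the 586, so that count overstates how steady the signs were. In all, 17 genes never turned. Counting the 53 that turned, 228 of the 639 moved by over 1.5 times, at least once for each of the 36 genes. These were up to 26 of 36 when wild-type array 3 was left out, 20 of 36 with array weights and 17 of 34 with the mean of probe sets. The cause was not tested. Leaving out 1 array gave these ranges: Ccnd1 -0.27 to 0.0575, Celsr3 -0.38 to 0.0102, Dkk3 -0.40 to 0.73, Fgf20 -0.91 to 2e-04, Fzd1 -0.25 to 0.34, Gpc3 -0.68 to 0.24, Lef1 -0.39 to 0.60, Lrp6 -5e-04 to 0.54, Sfrp1 -0.064 to 0.17, Tcf7l2 -0.11 to 0.67, Wnt10b -1.14 to 1.13, Wnt5a -0.26 to 0.49, Wnt5b -0.52 to 0.84, Wnt7a -0.72 to 0.55 and Wnt9a -0.49 to 0.57. Signs also turned with array medians set equal (Fzd1 0.004), no normalization (Fzd1 0.0624 and Wnt10b 0.058), the mean of probe sets (Fzd1 0.24, Ryk -0.0648, Tnfrsf19 -0.0246, Wnt5a -0.0054 and Wnt9a -0.0882), array weights (Fzd1 0.18, Tcf7l1 0.0427, Wnt10b 0.14, Wnt7a 0.28 and Wnt9a -0.11), without both arrays numbered 3 (Dkk3 -0.30, Fzd1 0.30, Gpc3 0.24, Sfrp1 -0.0355, Tcf7l1 0.0064, Wnt10b 0.15, Wnt4 -0.0308, Wnt5b -0.50 and Wnt7a 0.0203), and without wild-type array 2 and mutant array 1 (Lef1 -0.45, Sfrp1 -0.0145, Tcf7l2 -0.22, Wnt10b 0.47 and Wnt9a -0.12). The stricter dim filter, log2(value + 16) and the mean of probe sets left some members untested. Levels near the floor limit what Wnt10b, Wnt5b, Dkk1, Fzd9 and the 17 dim members can show.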
